A study of Mus musculus with 12 samples.

Results

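The enzymes of glucose metabolism that exist as an adult liver form and as a widely expressed form were examined at the mRNA level. The 8 genes *Slc2a2*, *Hk1*, *Hk2*, *Aldoa*, *Pklr*, *Pkm*, *Fbp1* and *Pck1* were chosen by symbol from the 41743 genes of the tables, and all 8 were found. The choice was made with earlier results of these data known. 7 carried the plain symbol, and *Aldoa* was taken from the row of its Ensembl identifier ENSMUSG00000030695, since a second row of that name, ENSMUSG00000114515, held at most 0.159 TPM in any liver. RNA from frozen whole livers of 12 female mice aged 3 to 4 months had been sequenced, 3 in each of 4 groups. YAP KO mice carried *Foxa3*-Cre, *Yap1* fl/fl and a floxed ROSA-stop-EYFP reporter on the C57BL/6 strain, and their WT littermates are called WT (C57BL/6). YAP KO TAZ HET mice had lost *Yap1* by the same Cre together with 1 allele of *Wwtr1*, the gene of TAZ. They were on a mixed C57BL/6 and FVB background, and their littermates are called WT (mixed). The floxed alleles of the YAP KO TAZ HET mice came from a separate line floxed for *Yap1* and *Wwtr1*, for which no EYFP reporter is described. *Foxa3*-Cre acts in the foregut endoderm, so hepatocytes and bile duct cells lose the floxed alleles, whereas stellate, endothelial and blood cells of the liver keep them. The Cre and floxed alleles that the WT littermates carried are not given in the sources used here.

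Hepatocytes take up glucose through the low-affinity carrier GLUT2, break it down through a pyruvate kinase of their own, and can run the pathway backwards to release glucose into the blood. The fetal liver, proliferating cells and most non-liver cells rely instead on GLUT1, on the high-affinity hexokinases, on aldolase A and on the pyruvate kinase encoded by *Pkm*. A shift from the adult forms to the widely expressed forms is known from liver regeneration, chronic injury and liver tumors. Only livers of adult mice were sequenced, so the levels of these genes in fetal liver are not part of these data. In the WT livers *Slc2a2*, *Pklr*, *Fbp1* and *Pck1* lay between 119 and 2996 TPM, *Hk1* and *Hk2* lay between 0.365 and 1.64 TPM, and *Pkm* lay between 8.39 and 12.3 TPM. TPM is read density per base of transcript, scaled to the same total in every liver, so levels can be compared between genes. *Aldoa*, at 60.4 to 73.0 TPM in the WT livers, was the widely expressed gene with the highest level.

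*Yap1* stood between 28.2 and 33.2 TPM in the 6 WT livers, between 1.67 and 3.72 TPM in the YAP KO and between 8.63 and 11.5 TPM in the YAP KO TAZ HET livers. *Wwtr1* stood at 6.26 to 8.38 TPM in the WT, 13.3 to 16.7 TPM in the YAP KO and 11.5 to 14.1 TPM in the YAP KO TAZ HET livers, so its level does not show the missing allele. Every liver sums to the same TPM total, so the depth of a single library cannot be read from the values. The methods give only a general number of reads per sample. TPM values were scaled between livers, 1 was added and log2 was taken, and limma was run on genes that reached 1 TPM in 3 or more livers. Without the scaling the median log2 fold change of all genes was 0.28 in the YAP KO and 0.24 in the YAP KO TAZ HET livers, and with it -0.04 in both, so every fold change below is relative to the bulk of genes. These are whole livers, so fewer cells of a type and less RNA per cell cannot be told apart. Macrophage markers summed to 417 to 537 TPM in WT (C57BL/6), 1126 to 1608 TPM in the YAP KO, 363 to 741 TPM in WT (mixed) and 1619 to 1720 TPM in the YAP KO TAZ HET livers. Markers of stellate cells and fibroblasts summed to 129 to 171 TPM in the WT livers and 370 to 583 TPM in the model livers, and the 8 hepatocyte markers to 92404 to 116540 TPM and 75286 to 91252 TPM. The hepatocyte marker *Alb* alone held 68164 to 95413 TPM in the WT and 43037 to 61796 TPM in the model livers after scaling. Of the 8 hepatocyte markers, 4 were lower and 4 did not pass in each model, where 18% and 19% of all tested genes were lower. Biliary markers summed to 37.0 to 68.3 TPM in the WT, 348 to 772 TPM in the YAP KO and 130 to 243 TPM in the YAP KO TAZ HET livers, and markers of monocytes and neutrophils to 6.803 to 16.8, 58.9 to 67.5 and 15.7 to 64.7 TPM. The biliary marker *Spp1* alone held 30.0 to 54.6, 282 to 596 and 75.6 to 174 TPM after scaling. Of 6 biliary markers tested, 3 were higher in each model, beside 18.8% and 19.2% of all genes. In the YAP KO TAZ HET livers 1 was lower, beside 19%. The paper found no intrahepatic ducts in adults of either model by CK19 staining. Adipocyte markers summed to 7.38 to 30.8 TPM in the WT and 26.8 to 43.3 TPM in the model livers. Sums overlapped between each model and its littermates for endothelial, lymphocyte and erythroid markers. Pancreatic and muscle markers overlapped in the YAP KO pair, whereas in the YAP KO TAZ HET livers the pancreatic sum was lower (9.12 to 13.6 against 15.4 to 21.3 TPM) and the muscle sum higher (1.55 to 1.92 against 0.841 to 1.49 TPM) without overlap. The part of these shifts in the results below was not tested.

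Start regions are shown first for *Hk2*, *Pklr* and *Pkm*, the members with the largest log2 fold changes and with opposite directions, and for the *Aldoa* start that held a searched motif. Promoter sequences of all 8 genes, with 13 starts, were taken from RefSeq on GRCm38.p6, and each shown sequence is the 250 bases before a start, read 5′ to 3′ on the strand of the gene. The window of 300 bases, which runs 50 bases past the start, was searched on both strands for GGAATG, the core letters bound by TEAD factors, the DNA-binding partners of YAP and TAZ, for CACGNG followed after 5 bases by CNCGTG, the paired boxes of the carbohydrate response element, bound by the factor encoded by *Mlxipl*, and for CACGTG, the single E-box. Matches are in capitals. The *Pklr* sequence is that of the downstream of its 2 starts, the one used in liver (chr3:89136373-89136622, plus strand), *Pkm* is chr9:59656326-59656575 on the plus strand, *Hk2* is chr6:82774455-82774704 on the minus strand and *Aldoa* is chr7:126799255-126799504 on the minus strand.
*Pklr*: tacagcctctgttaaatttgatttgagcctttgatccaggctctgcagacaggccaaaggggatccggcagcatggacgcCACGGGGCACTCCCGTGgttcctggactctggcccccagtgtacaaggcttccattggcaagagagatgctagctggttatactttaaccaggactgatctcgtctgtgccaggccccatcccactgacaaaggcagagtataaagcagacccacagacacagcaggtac
*Pkm*: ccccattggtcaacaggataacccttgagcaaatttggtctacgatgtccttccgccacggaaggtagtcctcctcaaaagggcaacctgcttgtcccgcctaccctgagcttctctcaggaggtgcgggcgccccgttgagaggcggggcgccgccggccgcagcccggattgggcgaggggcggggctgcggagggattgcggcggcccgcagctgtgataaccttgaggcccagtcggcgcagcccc
*Hk2*: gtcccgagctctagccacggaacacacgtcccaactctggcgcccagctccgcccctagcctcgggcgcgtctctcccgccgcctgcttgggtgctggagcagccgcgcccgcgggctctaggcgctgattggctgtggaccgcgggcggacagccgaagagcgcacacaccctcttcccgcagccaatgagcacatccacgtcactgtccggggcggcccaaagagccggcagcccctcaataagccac
*Aldoa*: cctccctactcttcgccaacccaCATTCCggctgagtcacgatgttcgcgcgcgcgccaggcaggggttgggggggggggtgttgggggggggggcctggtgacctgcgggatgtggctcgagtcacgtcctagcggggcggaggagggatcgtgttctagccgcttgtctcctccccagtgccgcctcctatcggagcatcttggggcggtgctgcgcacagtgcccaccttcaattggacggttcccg
The *Pklr* liver start held the paired boxes, beginning at base -170 from the start, a sequence present in 15 of 32851 promoters of this length (0.0457%). This *Aldoa* start, 1 of 3, held GGAATG once, on the other strand from base -227, and 14.7% of all promoters held it. The other 11 starts of the 8 genes held none of the 3 sequences, and CACGTG was in 7.15% of all promoters. A match describes the letters only, and nothing in these data bears on binding there.

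Among the 8 genes, the widely expressed forms *Hk2*, *Aldoa* and *Pkm* were higher and the liver genes *Pklr* and *Fbp1* were lower in both models, and *Hk1* passed the test in YAP KO livers. *Slc2a2*, the glucose carrier of hepatocytes, and *Pck1*, the cytosolic phosphoenolpyruvate carboxykinase of gluconeogenesis, did not pass the test in either. In YAP KO livers 6 of the 8 genes passed an adjusted p of 0.05 (limma, Benjamini-Hochberg over all genes tested), 4 higher and 2 lower, where 36.7% of the 11704 genes tested passed, 18.8% higher and 18% lower. In YAP KO TAZ HET livers 5 of the 8 passed, 3 higher and 2 lower, where 38.2% of 11741 genes passed, 19.2% higher and 19% lower. As the 8 genes were chosen with earlier results of these data known, no excess over these shares is read from the counts. The median log2 fold change of the 8 genes was 0.26 in the YAP KO and 0.03 in the YAP KO TAZ HET livers, beside -0.04 for all genes in each. On TPM as deposited, with no scaling, 4 genes passed higher and 1 (*Pklr*) lower in each model. The TPM of *Hk1*, *Hk2*, *Aldoa* and *Pkm* did not overlap between models and littermates in either pair, a gap upwards that 47.5% of tested genes showed in the YAP KO and 44.4% in the YAP KO TAZ HET livers. Downwards, *Pklr* and *Fbp1* did not overlap in the YAP KO livers and *Pklr* in the YAP KO TAZ HET livers, beside 9.29% and 10% of tested genes. *Hk2* passed the filter on low values only through the model livers and so had to differ to be tested at all, and for *Hk1* only 1 of the 3 WT (C57BL/6) livers reached 1 TPM.

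**Figure D1:**
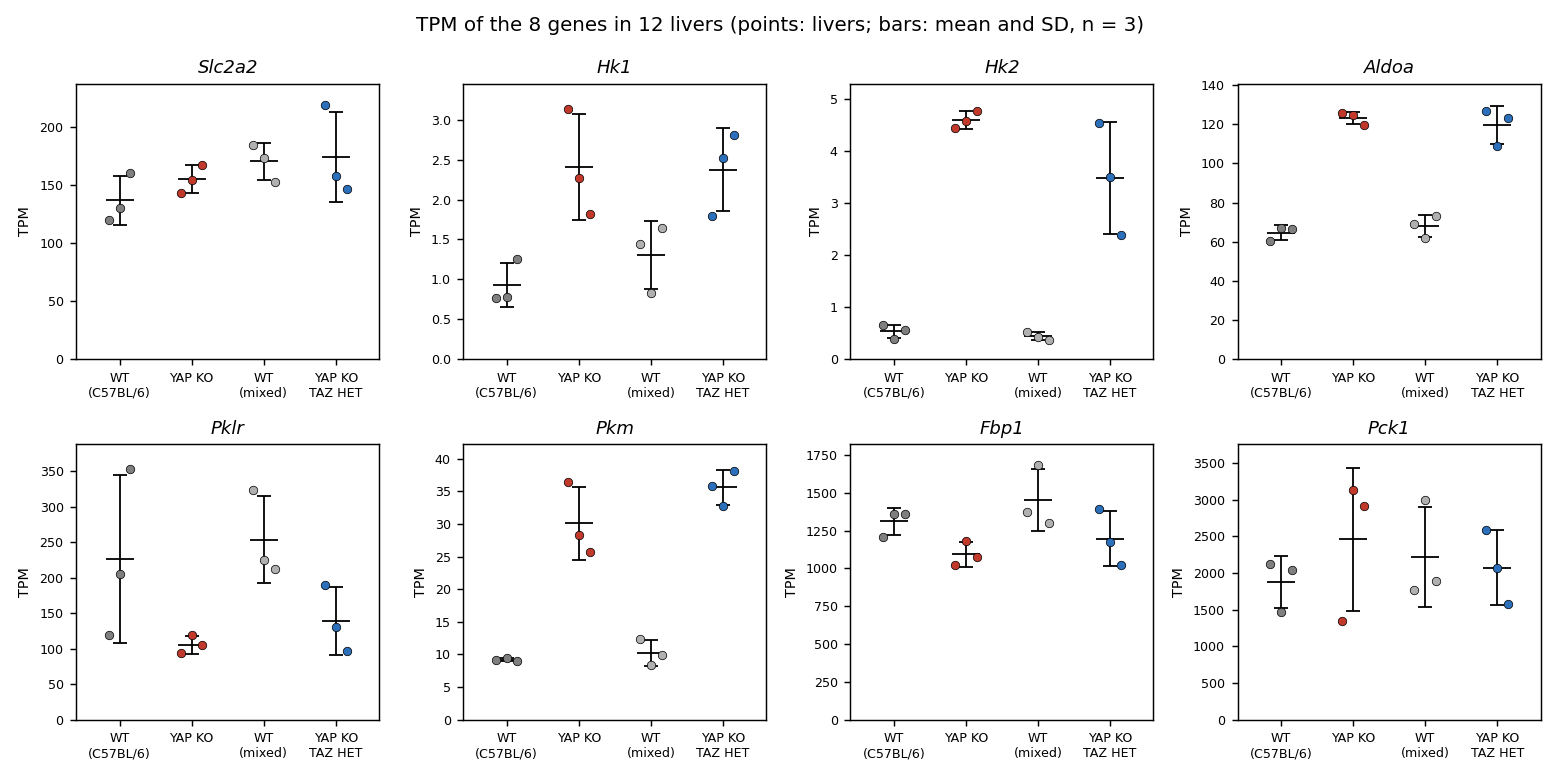
TPM (linear axes from 0) of the 8 genes in each of the 12 livers, with the mean and SD of each group of 3. *Hk2*, *Pkm* and *Aldoa* of every model liver sit above every WT liver, whereas *Slc2a2* and *Pck1* of models and WT overlap.

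Glucose enters hepatocytes through GLUT2, encoded by *Slc2a2* (ENSMUSG00000027690, chromosome 3, 28697903 to 28731359, plus strand, GRCm38). The gene stood at 120, 130 and 160 TPM in WT (C57BL/6) and 143, 154 and 167 TPM in the YAP KO livers, and at 153, 173 and 184 TPM in WT (mixed) and 146, 158 and 218 TPM in the YAP KO TAZ HET livers. Models and littermates overlapped in both pairs. The log2 fold change was -0.17 (95% confidence interval -0.50 to 0.16) for YAP KO and -0.30 (-0.61 to 0.00) for YAP KO TAZ HET, with limma adjusted p of 0.377 and 0.106. Both values were above 0 without the scaling, at 0.19 and 0.017. The YAP KO TAZ HET liver LM225 had the highest *Slc2a2* of all 12 before scaling but not after it, at 182 TPM against 195 TPM in the WT (mixed) liver LM227. Without LM225 the value for YAP KO TAZ HET was -0.44 and the limma adjusted p was 0.0169.

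*Slc2a1*, which encodes the widely expressed carrier GLUT1, was at 4.52 to 7.56 TPM in the 6 WT livers and higher in all 6 model livers. The YAP KO livers held 11.3, 13.9 and 14.1 TPM of it, and the YAP KO TAZ HET livers held 9.19, 10.8 and 11.96 TPM. Its log2 fold change was 0.67 (limma adjusted p = 0.0246) in the YAP KO livers and 0.38 (adjusted p = 0.055) in the YAP KO TAZ HET livers, the latter passing without the scaling (0.66, limma adjusted p = 0.00613). The YAP KO call was lost in 4 of the 6 fits that leave out 1 liver (LM75, LM189, LM191 or LM193), with limma adjusted p up to 0.0792. The TPM ratio of *Slc2a1* over *Slc2a2* within a liver, which needs no scaling between livers, was 1.89-fold and 1.66-fold higher without overlap of the groups. 3 livers against 3 cannot give an exact two-sided permutation p below 0.1, the value found in both, and over the 6 comparisons of ratios given here such a p becomes 0.12 after Benjamini-Hochberg adjustment.

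Hexokinases trap glucose in the cell as glucose 6-phosphate. *Hk2*, which encodes the insulin-responsive hexokinase of muscle, fat and many tumors (ENSMUSG00000000628, chromosome 6, 82725025 to 82774454, minus strand), had the largest log2 rise of the 8 genes in both models. It was barely present in the WT livers, at 0.391, 0.550 and 0.650 TPM on C57BL/6 and 0.365, 0.430 and 0.514 TPM on the mixed background. The YAP KO livers held 4.45, 4.57 and 4.78 TPM, and the YAP KO TAZ HET livers held 2.39, 3.50 and 4.55 TPM. Every model liver lay above every WT liver, and the ratio of the group means was 8.68 and 7.97. The log2 fold change was 1.66 ± 0.15 (SE) in the YAP KO and 1.44 ± 0.18 in the YAP KO TAZ HET livers (limma adjusted p = 0.000129 and 0.000533). With 0.1 in place of 1 added to the scaled TPM, these became 2.59 and 2.41. *Hk2* falls under the filter when a model liver is left out, so each liver was also left out with no filter, an alternative added after seeing the data, and the limma adjusted p was then at most 0.00847 in either model.

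*Hk1* encodes the hexokinase of brain and red cells (ENSMUSG00000037012, chromosome 10, 62268855 to 62379908, minus strand). It stood at 0.767, 0.781 and 1.25 TPM in WT (C57BL/6) and 1.82, 2.27 and 3.13 TPM in the YAP KO livers, and at 0.822, 1.44 and 1.64 TPM in WT (mixed) and 1.79, 2.52 and 2.81 TPM in the YAP KO TAZ HET livers. The groups did not overlap in either pair before scaling. *Hk1* rose by a log2 fold change of 0.59 (SE 0.18, limma adjusted p = 0.0333) in the YAP KO livers, and the value in the YAP KO TAZ HET livers was 0.36 (95% confidence interval -0.11 to 0.83, adjusted p = 0.200). The YAP KO call was lost without LM74, LM75, LM189 or LM192, with limma adjusted p up to 0.110, and the YAP KO TAZ HET value passed at 0.0475 without the scaling.

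**Figure D2:**
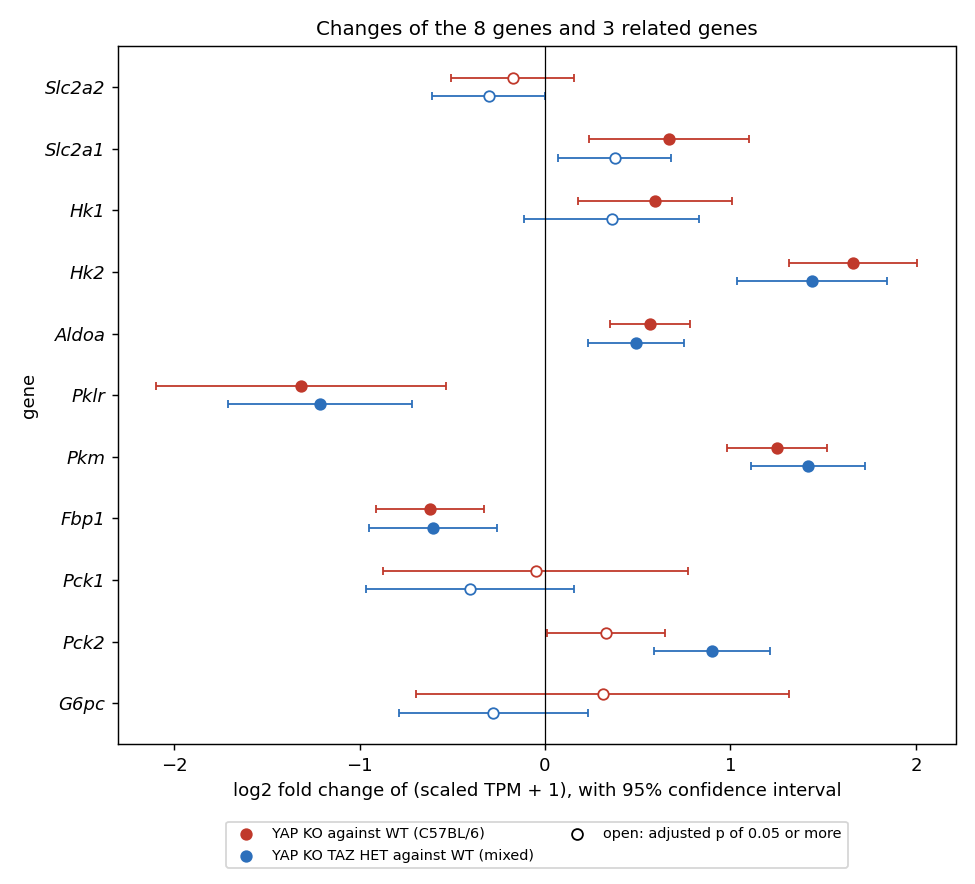
Log2 fold change of (scaled TPM + 1) with its 95% confidence interval for the 8 genes and for *Slc2a1*, *Pck2* and *G6pc*, each model against its WT littermates (n = 3 against 3). Filled points pass a limma adjusted p of 0.05. *Hk2*, *Aldoa* and *Pkm* lie above 0 and *Pklr* and *Fbp1* below 0 in both models.

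Aldolase splits fructose 1,6-bisphosphate in glycolysis and is shared with gluconeogenesis. *Aldoa*, the form of muscle and of most tissues (chromosome 7, 126795234 to 126800751, minus strand), stood at 60.4, 66.5 and 67.1 TPM in WT (C57BL/6) and 120, 125 and 126 TPM in the YAP KO livers. It stood at 61.8, 69.2 and 73.0 TPM in WT (mixed) and 109, 123 and 127 TPM in the YAP KO TAZ HET livers. The spread within each group was small beside the gap between models and WT, which did not overlap. *Aldoa* rose by a log2 fold change of 0.57 ± 0.09 (SE) and 0.49 ± 0.11 (limma adjusted p = 0.00249 and 0.0104). Without the YAP KO TAZ HET liver LM251 the second limma adjusted p was 0.0522.

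Pyruvate kinase makes pyruvate in the last step of glycolysis, and *Pklr* encodes the form of liver and red cells (ENSMUSG00000041237, chromosome 3, 89136142 to 89146784, plus strand). *Pklr* stood at 119, 206 and 353 TPM in WT (C57BL/6) and 93.5, 105 and 119 TPM in the YAP KO livers. It stood at 212, 226 and 324 TPM in WT (mixed) and 96.6, 131 and 190 TPM in the YAP KO TAZ HET livers. Every model liver lay below every littermate, but the lowest WT (C57BL/6) liver and the highest YAP KO liver differed by less than 1 TPM before scaling. *Pklr* fell by a log2 fold change of 1.32 ± 0.34 (SE) and of 1.21 ± 0.22 (limma adjusted p = 0.0176 and 0.0032). The first limma adjusted p was 0.0621 without LM74, the YAP KO liver with the lowest *Pklr*. The last 711 bases of *Pklr* overlap *Hcn3*, a channel gene on the other strand, which itself stood at 5.56 to 21.1 TPM in the WT livers and at 2.32 to 5.27 TPM in the model livers. The strand setting of the counting is not given in the sources used here, so reads from the shared bases cannot be told apart.

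*Pkm* encodes the pyruvate kinase of muscle, of the fetal liver and of proliferating and blood cells, with 2 splice forms that gene-level values cannot tell apart (ENSMUSG00000032294, chromosome 9, 59656368 to 59679375, plus strand). *Pkm* stood at 8.93, 9.21 and 9.50 TPM in WT (C57BL/6) and 25.7, 28.2 and 36.3 TPM in the YAP KO livers. It stood at 8.39, 9.87 and 12.3 TPM in WT (mixed) and 32.8, 35.8 and 38.2 TPM in the YAP KO TAZ HET livers. Every model liver lay above every WT liver, by a factor of more than 2. *Pkm* rose by a log2 fold change of 1.25 ± 0.12 (SE) and 1.42 ± 0.13 (limma adjusted p = 0.000148 and 0.000151), and both calls held in every alternative run. Of the 12 macrophage markers, 10 were higher and 1 (*Cd163*) was lower in each model, and the part of macrophage RNA in *Pkm* was not tested. None of the 4 splicing factors known to choose between the *Pkm* exons (*Ptbp1*, *Hnrnpa1*, *Hnrnpa2b1* and *Srsf3*) passed the test in either model by limma, although *Ptbp1* and *Srsf3* in the YAP KO and *Srsf3* in the YAP KO TAZ HET livers had an unadjusted p under 0.05. The lowest limma adjusted p was that of *Srsf3* in the YAP KO TAZ HET livers, 0.0504, with a log2 fold change of -0.39.

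*Pklr* remained the more abundant pyruvate kinase RNA in every liver. The TPM ratio of *Pkm* over *Pklr* was 0.0253, 0.0462 and 0.0774 in WT (C57BL/6) and 0.238, 0.244 and 0.389 in the YAP KO livers, and 0.0372, 0.0380 and 0.0465 in WT (mixed) and 0.188, 0.251 and 0.395 in the YAP KO TAZ HET livers. No model liver had a ratio as low as any WT liver. The ratio was 6.29-fold higher in the YAP KO and 6.58-fold higher in the YAP KO TAZ HET livers (exact two-sided permutation p = 0.1 in each, the smallest possible), the largest shift of the 3 pairs of forms compared.

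**Figure D3:**
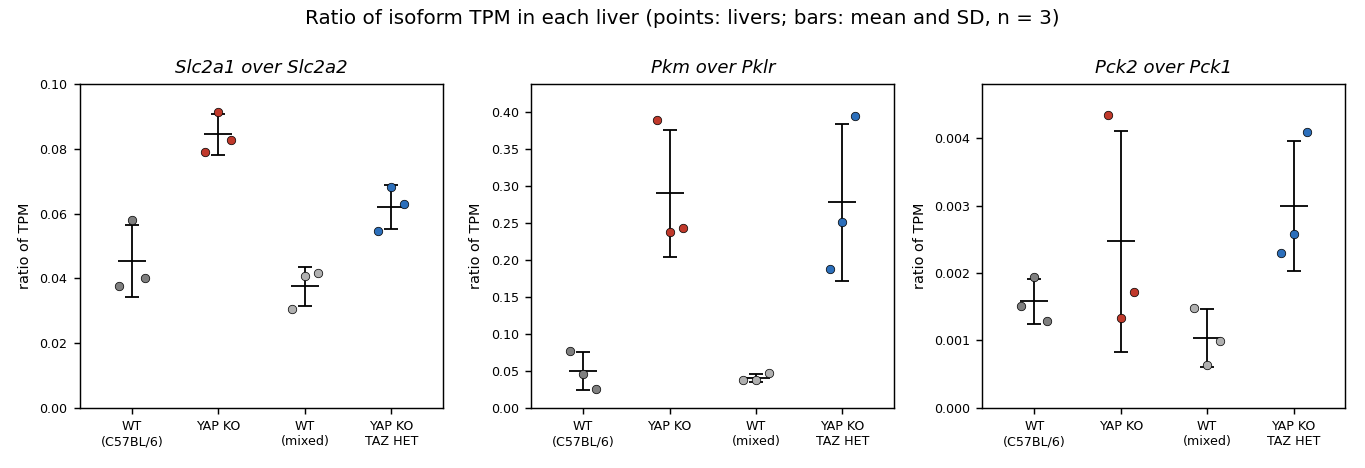
Ratio of the TPM of a widely expressed form to that of its adult liver form within each liver (linear axes from 0), with the mean and SD of each group of 3. *Pkm* over *Pklr* lies between 0.0253 and 0.0774 in the WT livers and between 0.188 and 0.395 in the model livers.

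Gluconeogenesis reverses glycolysis with enzymes of its own. *Fbp1*, the fructose bisphosphatase of liver and kidney (ENSMUSG00000069805, chromosome 13, 62864753 to 62888282, minus strand), stood at 1209, 1360 and 1363 TPM in WT (C57BL/6) and 1025, 1074 and 1184 TPM in the YAP KO livers. It stood at 1303, 1371 and 1684 TPM in WT (mixed) and 1024, 1178 and 1390 TPM in the YAP KO TAZ HET livers, where 1 model liver, LM225, lay within the WT range. *Fbp1* fell by a log2 fold change of 0.62 ± 0.13 (SE) and 0.60 ± 0.15 (limma adjusted p = 0.0064 and 0.0142). Both calls rest on the scaling: on TPM as deposited the values were -0.26 and -0.28, with limma adjusted p of 0.0600 and 0.167. The second call was also lost without LM251 (limma adjusted p = 0.0643). *Fbp2*, the muscle form, was below 1 TPM in every liver and was not tested.

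*Pck1*, which encodes the cytosolic enzyme that makes phosphoenolpyruvate from oxaloacetate (ENSMUSG00000027513, chromosome 2, 173153048 to 173159273, plus strand), was the most abundant of the 8 genes in every liver. It stood at 1475, 2041 and 2129 TPM in WT (C57BL/6) and 1344, 2909 and 3134 TPM in the YAP KO livers. It stood at 1766, 1888 and 2996 TPM in WT (mixed) and 1574, 2065 and 2589 TPM in the YAP KO TAZ HET livers. The groups overlapped in both pairs, and YAP KO livers held the lowest and the highest TPM of the 12 before scaling. The log2 fold change was -0.05 (95% confidence interval -0.87 to 0.77) and -0.40 (-0.96 to 0.15), with limma adjusted p of 0.925 and 0.223. The first value changed sign without the scaling, at 0.31.

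*Pck2*, the mitochondrial form of the enzyme, was at 1.86 to 3.23 TPM in the WT livers and at 4.19 to 6.43 TPM in the model livers, without overlap. Its log2 fold change was 0.33 (limma adjusted p = 0.0958) in the YAP KO livers, or 0.62 (0.0141) without the scaling, and it rose by 0.90 (adjusted p = 0.00152) in the YAP KO TAZ HET livers, but the difference between the models did not pass the test (-0.57, adjusted p = 0.904). The TPM ratio of *Pck2* over *Pck1* overlapped between the YAP KO livers and their littermates (exact permutation p = 0.6) and was 2.96-fold higher without overlap in the other model (exact p = 0.1). *G6pc*, which encodes the glucose 6-phosphatase that frees glucose for the blood, was at 197 to 397 TPM in the WT livers and 213 to 909 TPM in the model livers, with log2 fold changes of 0.31 and -0.28 (limma adjusted p = 0.613 and 0.358). *Slc37a4*, which carries glucose 6-phosphate to that enzyme, fell by a log2 fold change of 1.10 and 0.99 (limma adjusted p = 0.0166 and 0.00839), the first call being lost without LM193.

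The 2 WT groups were compared to see the part of the strain background. None of the 7 genes tested between them, *Hk2* being under the filter, passed the test (limma, 0 also at an unadjusted p under 0.05), where 0.216% of 11126 genes passed, 0.171% higher in WT (mixed) and 0.0449% lower, and the largest difference was 0.26 on the log2 scale for *Slc2a2* (adjusted p = 0.889). The 2 WT groups overlapped in TPM for all 8 genes, where 8.42% of tested genes were higher and 3.29% lower in WT (mixed) without overlap. The loss of 1 *Wwtr1* allele was addressed by the difference between the effects of the 2 models. None of the 8 genes passed (limma, 0 also at an unadjusted p under 0.05), where 0.0658% of 12159 genes passed, 0.0247% above 0 and 0.0411% below. The difference, YAP KO effect minus YAP KO TAZ HET effect, was between -0.17 for *Pkm* and 0.35 for *Pck1* on the log2 scale. Its 95% confidence interval was -0.55 to 0.21 for *Pkm*, -0.26 to 0.73 for *Hk2* and -0.23 to 0.37 for *Aldoa*, but -1.09 to 0.87 for *Pklr* and -0.71 to 1.41 for *Pck1*, so the precision for the last 2 was lower. The model itself is confounded with the strain background, the source of the floxed *Yap1* allele and the described EYFP reporter. The remaining *Yap1* level also differed between the models. The alleles, the reporter and the background therefore cannot be told apart in it.

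The 4 groups were also ordered by their mean TPM before scaling. For *Hk1*, *Hk2*, *Aldoa* and *Pkm* both model groups ranked above both WT groups by mean TPM, and for *Pklr* and *Fbp1* both WT groups ranked above both models. Neighbours within the models and within the WT groups overlapped in all 8 genes. For *Slc2a2* and *Pck1* the order of unscaled TPM did not follow the genotype: WT (C57BL/6) was lowest in both, at 137 ± 20.9 and 1882 ± 355 TPM (SD, n = 3), YAP KO TAZ HET was highest for *Slc2a2* at 174 ± 38.7 TPM and YAP KO was highest for *Pck1* at 2462 ± 975 TPM. This order rests on the lack of scaling for *Slc2a2*, whose log2 fold changes after scaling were below 0 in both models (-0.17 and -0.30).

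Over the 12 livers, the log2 levels of the 8 genes formed blocks, given here as a description since the points share the genotype. *Pkm* and *Aldoa* had a Pearson r of 0.93, *Hk2* and *Aldoa* 0.92 and *Hk2* and *Pkm* 0.91. *Fbp1* and *Pklr* had 0.87, and *Fbp1* against *Pkm* had -0.93. *Slc2a2* ran with *Pklr* (0.82) although it did not pass the test itself, and *Pck1* had no r beyond 0.58 in size with any of the others. Among 12158 genes, those most like *Pkm* were *Ehd4* (r = 0.997) and *Lgmn* (0.994), those most like *Aldoa* were *Vcam1* (0.986) and *Havcr2* (0.984), and those most like *Hk2* were *Unc13b* (0.991) and *Arhgap22* (0.985). *Hk1* was most like *Impdh1* (0.950) and *Tecpr2* (0.931). *Pklr* was most like *Xpot* (0.981) and *Hcn3* (0.980), the gene that it overlaps, and *Fbp1* was most like *Agmo* (0.982) and *Sh2b1* (0.981). *Slc2a2* was most like *Umps* (0.933) and *Tbc1d16* (0.918), and *Pck1* was most like *Lpin2* (0.899) and *Slc25a22* (0.889).

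The other genes of glucose metabolism were read from 9 lists with 68 genes, of which 61 were tested in each model. In YAP KO livers 16 were higher and 17 lower, and in the YAP KO TAZ HET livers 12 were higher and 20 lower (limma adjusted p under 0.05), where 18.8% of all tested genes were higher and 18% lower in the first and 19.2% and 19% in the second, and 11 were higher and 16 lower in both, with no gene in opposite directions. The median log2 fold change was 0.04 and -0.05, beside -0.04 for all genes. On TPM as deposited the split was 27 higher and 11 lower in the YAP KO and 24 higher and 12 lower in the YAP KO TAZ HET livers, so the balance of directions rests on the scaling. Of the 27 genes that passed in both models, 17 kept both calls in every alternative that tested them, and a lost call is given below for each of the others that is named. None passed between the WT groups or between the models (limma, with 3 genes at an unadjusted p under 0.05 in each).

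**Figure D4:**
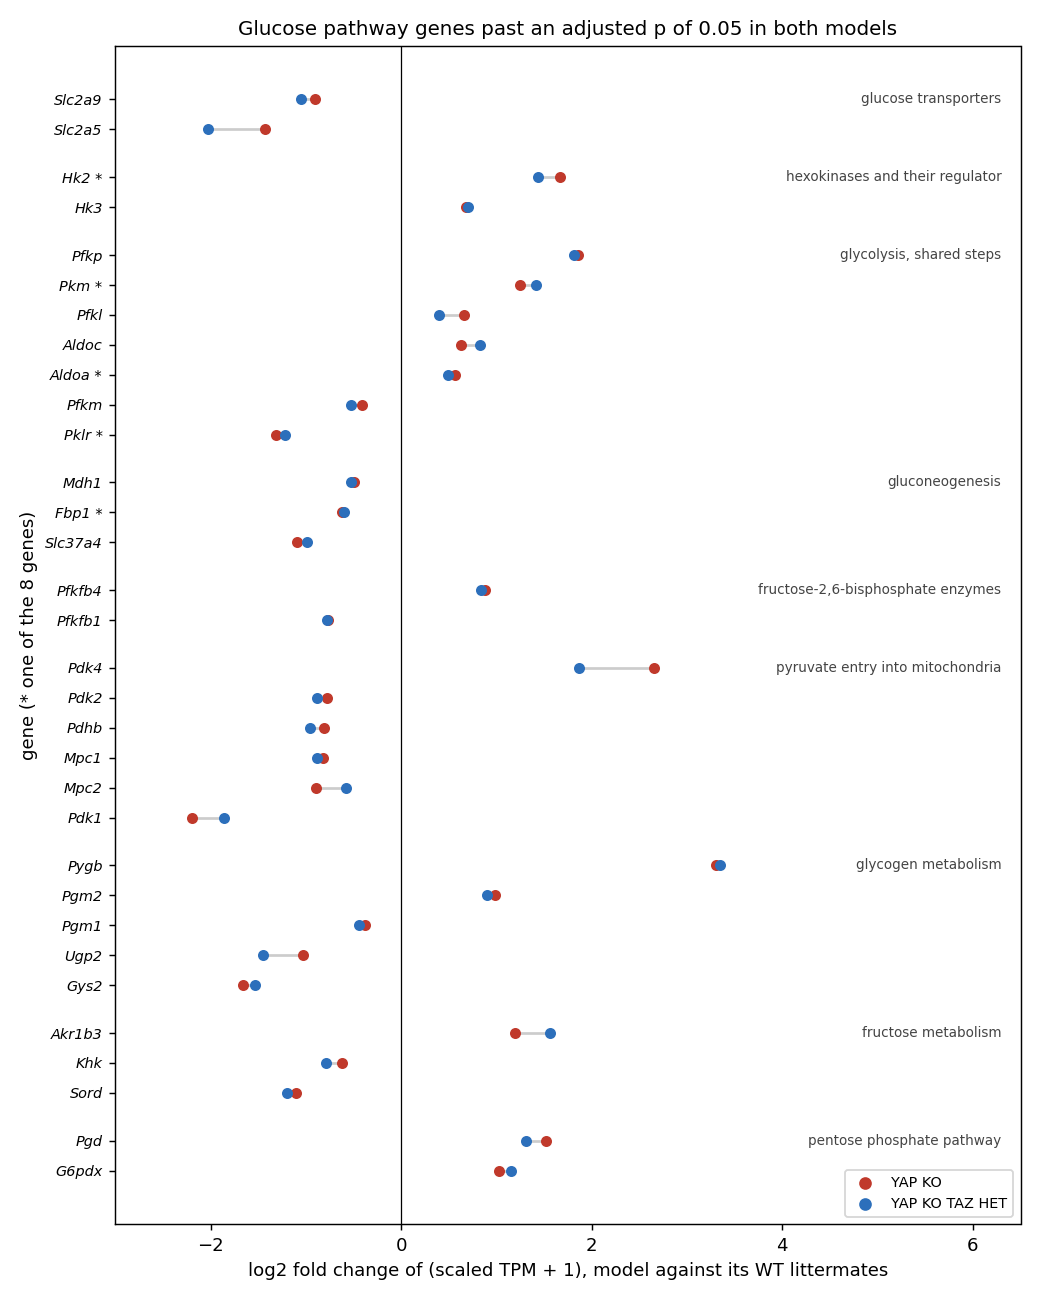
Log2 fold change of (scaled TPM + 1) of each glucose pathway gene that passed a limma adjusted p of 0.05 in the same direction in both models, grouped by list, with asterisks on the genes of the set of 8. *Pygb* shows the largest rise, at 3.31 and 3.35, and *Pdk1* the largest fall in the YAP KO livers, at -2.20.

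Within the 14 other genes of glycolysis tested, 6 were higher and 1 lower in the YAP KO and 3 higher and 2 lower in the YAP KO TAZ HET livers, where 36.7% and 38.2% of all tested genes passed in either direction. *Pfkp*, the platelet form of phosphofructokinase, rose from 0.855 to 1.94 TPM in the WT livers to 7.12 to 9.61 TPM in the model livers, by a log2 fold change of 1.86 and 1.81 (limma adjusted p = 4.84e-05 and 9.21e-05). *Pfkl*, the liver form, rose by 0.66 and 0.39, and *Pfkm*, the muscle form, fell by 0.41 and 0.52, but both lost a call when single livers were left out (*Pfkl* in the YAP KO TAZ HET livers, *Pfkm* in both models). *Aldoc*, the aldolase of brain, rose by 0.63 and 0.83 and *Hk3*, the hexokinase of white blood cells, by 0.68 and 0.71 on the log2 scale, also with calls lost when single livers were left out (*Aldoc* in both models, *Hk3* in the YAP KO TAZ HET livers). The other 3 genes that passed higher in the YAP KO livers encode enzymes that act after aldolase: *Gapdh* rose by 0.41, *Tpi1* by 0.36 and *Pgam1* by 0.28 (limma adjusted p = 0.0206, 0.0281 and 0.0472). Each of these calls was lost without LM189, LM191 or LM192, those of *Tpi1* and *Pgam1* also without LM193 and that of *Pgam1* without LM75, with a highest limma adjusted p of 0.146. Their log2 fold changes in the other model were 0.14, 0.35 and 0.15 and did not pass (limma adjusted p = 0.321, 0.0503 and 0.311), although all 3 passed without the scaling, and *Tpi1* also with 0.1 added, with all 12 livers in 1 fit or without LM225. *Pgk1* and *Eno1*, which act in the same stretch of glycolysis, and the lactate dehydrogenase genes *Ldha* and *Ldhb* lay between -0.06 and 0.29 and did not pass in either model. *Pfkfb1*, the liver form of the enzyme that sets the fructose bisphosphate signal of phosphofructokinase, fell by 0.76 and 0.78, the first call being lost without the scaling, and *Pfkfb4*, a form found in testis and tumors, had log2 fold changes of 0.88 and 0.84. All 6 WT livers held less than 1 TPM of *Pfkfb4*, so it was tested only because the model livers were high. *Pfkp* reached 1 TPM in 1 of the 3 WT (C57BL/6) livers.

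Of 8 tested genes for the entry of pyruvate into mitochondria, 5 were lower and 1 higher in the YAP KO and 6 lower and 1 higher in the YAP KO TAZ HET livers, where 18% and 19% of all tested genes were lower and 18.8% and 19.2% higher. *Mpc1*, a subunit of the mitochondrial pyruvate carrier, fell by a log2 fold change of 0.82 and 0.88, and *Pdhb*, a subunit of pyruvate dehydrogenase, by 0.81 and 0.95. The kinases that switch pyruvate dehydrogenase off moved in opposite directions. *Pdk4*, the kinase induced by fasting, stood at 2.20 to 3.71 TPM in the WT livers and rose to 22.8, 24.1 and 44.7 TPM in the YAP KO and 11.5, 16.6 and 19.8 TPM in the YAP KO TAZ HET livers, by a log2 fold change of 2.66 and 1.87 (limma adjusted p = 0.00029 and 0.000604). *Pdk1* fell by 2.20 and 1.86 (limma adjusted p = 1.61e-05 and 4.75e-05) and *Pdk2* by 0.77 and 0.89.

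Of 11 glycogen genes, 3 were higher and 3 lower in the YAP KO and 2 higher and 4 lower in the YAP KO TAZ HET livers, beside 36.7% and 38.2% of all tested genes in either direction. *Pygb*, the brain form of glycogen phosphorylase, stood at 2.10 to 3.38 TPM in the WT livers and at 39.4 to 53.4 TPM in the model livers, a rise of 3.31 and 3.35 on the log2 scale (limma adjusted p = 1.17e-06 and 2.64e-06). *Pygl*, the liver form, had log2 fold changes of -0.23 and -0.35 and did not pass. *Gys2*, the glycogen synthase of liver, fell by 1.65 and 1.53 and *Ugp2*, which makes its substrate, by 1.03 and 1.45, while *Gys1*, the muscle form, did not pass (-0.21 and -0.08). The phosphoglucomutase genes *Pgm2* (0.99 and 0.90) and *Pgm1* (-0.38 and -0.44, both calls lost without the scaling) moved apart.

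Of the side branches, *Slc2a5*, the fructose carrier, fell by a log2 fold change of 1.43 and 2.03 and *Slc2a9*, a urate and hexose carrier, by 0.90 and 1.05. *Sord*, which turns sorbitol into fructose, fell by 1.10 and 1.19, while *Akr1b3*, the aldose reductase that makes sorbitol from glucose, rose by 1.20 and 1.56. *Khk*, the fructokinase, fell by 0.62 and 0.79, the first call being lost without the scaling, LM191 or LM193. Of 7 genes of the pentose phosphate pathway 2 were higher in both models, and 1 was lower in the YAP KO TAZ HET comparison, beside the same 36.7% and 38.2% of all tested genes. The 2 were the dehydrogenases that supply NADPH, with *Pgd* rising by 1.52 and 1.31 and *G6pdx* by 1.03 and 1.15 on the log2 scale. *Mdh1*, the cytosolic malate dehydrogenase, fell by 0.49 and 0.53, with both calls lost without the scaling and the first also without LM191.

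Among 14 regulators of glucose genes, 1 was higher and 4 lower in the YAP KO and 1 higher and 5 lower in the YAP KO TAZ HET livers, shares near the 36.7% and 38.2% of all tested genes that passed. *Mlxipl*, the carbohydrate response factor, stood at 78.9 to 176 TPM in the WT livers and 67.0 to 87.5 TPM in the model livers, and fell by a log2 fold change of 1.13 and 0.90 (limma adjusted p = 0.00115 and 0.0172). *Srebf1*, the insulin-driven lipogenic factor, fell by 1.10 and 1.74, *Cebpa*, a hepatocyte identity factor, by 0.94 and 0.68 and *Nr3c1*, the glucocorticoid receptor, by 0.40 and 0.37, while *Myc* rose by 2.15 and 1.68. *Hnf4a*, *Foxo1* and *Ppargc1a*, which drive adult liver and gluconeogenic genes, did not pass in either model, with log2 fold changes between -0.34 and 0.02. *Afp*, a marker of fetal liver, was at 0.281 to 1.498 TPM in the WT and 4.51 to 8.40 TPM in the model livers, with log2 fold changes of 1.70 and 1.86, whereas *H19*, *Igf2* and *Dlk1* were too low to test in either and *H19* was listed at 0 in all 12 livers. *Gpc3*, the remaining fetal marker, was tested only in the YAP KO pair, where it passed higher. It held at most 0.636 TPM in WT (C57BL/6), so it was tested only through the model livers.

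Genes of the circadian clock, which also times *Pck1* and *G6pc* in the fed and fasted day, moved with the groups. Of 13 tested, 2 were higher and 8 lower in the YAP KO and 2 higher and 9 lower in the YAP KO TAZ HET livers, where 18.8% and 19.2% of all tested genes were higher and 18% and 19% lower. *Arntl* stood at 0.437 to 1.51 TPM in the WT livers and 8.51 to 21.5 TPM in the YAP KO livers, with a log2 fold change of 2.89, and passed the filter on low values through the model livers in both pairs, as *Afp* did. *Dbp* stood at 182 to 248 TPM and 2.05 to 48.0 TPM and fell by 4.33. In YAP KO TAZ HET livers the changes were 2.41 and -3.23, but LM225 stood apart with 2.22 TPM of *Arntl* and 161 TPM of *Dbp*, near the WT livers. By TPM before scaling LM225 also held the highest *Slc2a2*, *Hk2*, *Aldoa*, *Pklr*, *Fbp1* and *Pck1* of its group, so it lay nearest to the WT livers for *Pklr* and *Fbp1* and farthest from them for *Hk2* and *Aldoa*, and it held the lowest *Hk1* and the middle value of *Pkm*. After scaling *Aldoa* was highest in LM251 instead, at 113 TPM against 106 TPM in LM225. The mice had chow ad libitum, but the time of day and the feeding state when livers were taken are not given in the sources used here. The part of either in these results was not tested.

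**Figure D5:**
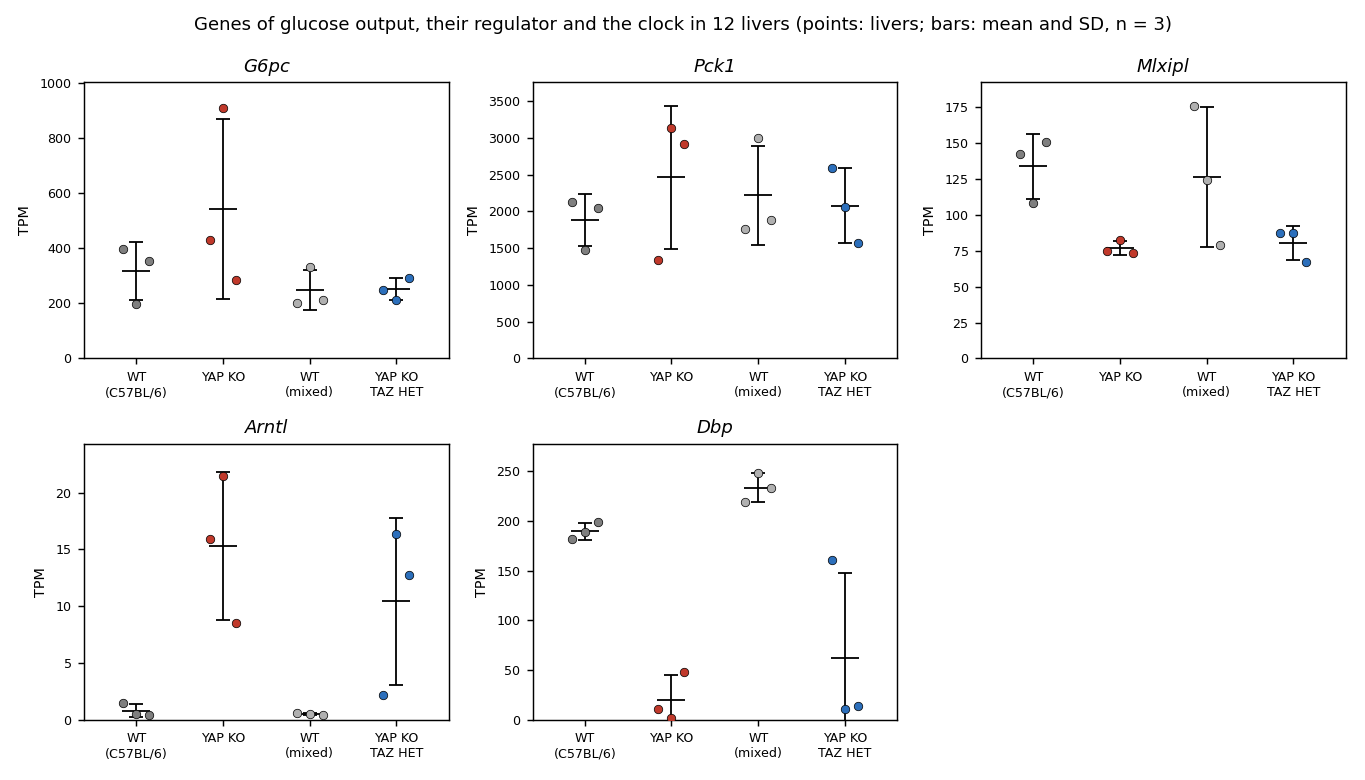
TPM (linear axes from 0) of *G6pc*, *Pck1*, *Mlxipl*, *Arntl* and *Dbp* in each of the 12 livers, with the mean and SD of each group of 3, the SD bar of *Dbp* in the YAP KO TAZ HET livers running below 0. *G6pc* and *Pck1* overlap between models and WT, whereas *Arntl* does not, and 1 YAP KO TAZ HET liver lies near the WT livers for *Arntl* and *Dbp*.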

How the data were processed

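Whole-liver RNA of 12 female mice, 4 groups of 3, was sequenced. The authors aligned the reads to GRCm38 in CLC Genomics Workbench, and deposited TPM for each gene and mouse. The tables also hold the authors' own edgeR comparisons (fold changes, log2 fold changes, p-values and false discovery rates), which were not used. 0 TPM columns were left without a sample, and TPM keeps no depth. No pair of livers held identical values. Replicates are separate mice, and p-values measure the spread between them.

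TPM was divided by a trimmed mean of log ratios per liver (trimming 30% by ratio and 5% by level from both ends), 1 was added and log2 taken. The tests ran in limma 3.58.1 under R 4.3.3 (eBayes with a trend, two-sided) on genes that reached 1 TPM in 3 or more livers of a fit, with Benjamini-Hochberg adjustment over all genes and a threshold of 0.05. Each model was fitted with its own 6 livers, the difference as a contrast over 12. Ratios of forms were compared within livers by exact two-sided permutation. The fit was tested on simulated data. Alternatives were a pseudocount of 0.1, no filter, no scaling, 12 livers in 1 fit, 1 added to both TPM of a ratio, and each liver left out, and, added after seeing the data, each left out with no filter.

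The members and lists were chosen with earlier results of these data known. Named genes were the 8 members, their counterparts, of each list the genes that passed in both models (at most 4 a direction by mean size), and for each member the 2 genes with the highest Pearson r. Genes named as not passing, or for a group's sake, were added after their values were seen. Results for some genes of the lists are not reported here one by one.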

Additional observations from a re-analysis of the deposited data

How the results depend on the processing

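Of 1276 values recomputed under the alternatives, 1149 were taken as the same, 68 lost a call, 10 gained one, 22 moved and 27 changed sign. A fold change was the same if it kept its direction and its side of the threshold. A count was the same within a set factor of the main count, and a ratio within the pooled SD of the groups compared. Counts and ratios beyond these limits, with the direction kept, were those that moved. *Pkm* and *Hk2* in both models, *Aldoa* in the YAP KO livers and *Pklr* in the YAP KO TAZ HET livers kept their calls in every alternative recorded for them. With 1 liver left out, 3 to 6 of the 8 genes passed for YAP KO and 2 to 6 for YAP KO TAZ HET, the latter with 21 to 32 other pathway genes. The lowest counts came without LM74 (3 genes, with *Hk2* not tested, or 4 with no filter), with no filter and without LM192 (3), and without LM251 (2, with *Hk2* not tested, or 3 with no filter), and the pathway count of 21 came with no filter and without LM227.

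The sign changes fell on values that had not passed the test. Without the scaling *Slc2a2* was 0.19 and 0.017, *Pck1* 0.31 in the YAP KO, *G6pc* 0.043 in the YAP KO TAZ HET livers and the *Fbp1* difference between the models 0.020. With 1 liver left out, the log2 ratio in the YAP KO livers ran from -0.037 to 0.81 for *Pck2* over *Pck1*. Log2 fold changes in the YAP KO livers ran from -0.31 to 0.40 for *Pck1* and from -0.18 to 0.66 for *G6pc*. Between the WT groups they ran from -0.068 to 0.057 for *Aldoa*, -0.051 to 0.16 for *Fbp1*, -0.11 to 0.34 for *Pck1*, -0.15 to 0.61 for *Pklr* and -0.032 to 0.16 for *Pkm*, and the differences between the models from -0.011 to 0.13 for *Aldoa*, -0.15 to 0.079 for *Fbp1* and -0.48 to 0.28 for *Pklr*. The cause of these changes was not tested.

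No paired analysis was possible because the sources used here do not say which mice share a litter, and no mouse number is shared between groups. With 3 livers a group and no read depth for the single livers, a change smaller than the distance from a value to the ends of its confidence interval cannot be told from 0.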
